A study of Mus musculus with 40 samples.

Results

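Gene expression was compared between Dock10 knockout and wild-type spleen B cells that had been kept in culture for 18 h without a stimulus. The knockout group, KO_Ctrl, and the wild-type group, WT_Ctrl, held 5 samples each, which are 10 of the 40 arrays of the series. Every sample with this treatment was taken, and no measured value was used to choose them. Both groups came from C57BL/6 mice aged 12 weeks, the animals numbered 6 to 10 of each genotype. B cells were enriched from spleen by removing other cells with a negative selection kit, and were kept in RPMI medium with foetal calf serum and nothing else. B cells numbered as those of the same animals were also cultured with IL-4 at 10 ng/ml for 18 h (KO_IL4 and WT_IL4) or taken before culture (KO_Pre and WT_Pre). How the Dock10 allele was made is not given in the sources used here. Each sample was labelled with Cy5 and hybridised to an Agilent array together with 1 common reference in Cy3, a pool of KO_Pre RNA, and the deposited value of a probe is the log2 ratio of sample to pool. A log2 ratio of 0 is therefore the level of knockout B cells before culture, and the pool cancels in the difference KO_Ctrl minus WT_Ctrl. Where 5 values of a group are given below, they stand in the order of mice 6, 7, 8, 9 and 10.

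DOCK10 belongs to the DOCK family of guanine nucleotide exchange factors, which act on the actin cytoskeleton. Type I interferons bind the receptor IFNAR, whose kinases JAK1 and TYK2 activate transcription factors that bind the interferon-stimulated response element (ISRE) in front of antiviral genes. Resting B cells also receive tonic signals through the B cell antigen receptor and survival signals through the receptors of the cytokine BAFF.

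After culture without IL-4, knockout B cells had lower RNA of antiviral interferon-stimulated genes, of the B cell receptor and its coreceptors and of actin regulators than wild-type B cells, and higher RNA of the chemokines Ccl3 and Ccl4 and of 18 of 30 ribosome biogenesis genes. With limma, fitted on the 30 arrays of mice 6 to 10, 3350 of 21892 genes (15.3%) passed at a Benjamini-Hochberg adjusted p under 0.05, which is what "called" means throughout. Of all genes tested, 1505 (6.87%) were called higher and 1845 (8.43%) lower in KO_Ctrl, and the median log2 difference over all genes was 0.05. Higher genes made up 44.9% of these calls. A fit on only the 10 arrays called 1923 genes (8.78%), with 3.09% of all genes higher and 5.7% lower, so that higher genes made up 35.2% of its calls. Both fits called 1788 genes. After quantile normalization between arrays 674 genes (3.08%) were called, 0.594% of all genes higher and 2.48% lower, which makes 19.3% of the calls higher, so the split between directions depends on the scaling, whereas 671 of the 674 kept the direction of the first fit. Quantile normalization left 22 of 42 interferon effectors called lower (36 in the first fit). It left 9 of 33 B cell receptor genes (24 in the first fit) and 7 of 34 actin genes (19). Of the 30 ribosome biogenesis genes 1 stayed called higher, as did Ccl3 but not Ccl4. In the first fit the fold difference was at least 2 in 258 genes called higher and 376 called lower. The values of the 2 groups did not overlap in 10.4% of all genes, 869 higher (3.97%) and 1408 lower (6.43%) in KO_Ctrl, and 2.93% of all genes were called higher and 5.48% lower without overlap.

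The arrays carried no missing values. Each difference rests on 5 arrays per group, but its SE and adjusted p in the 30-array fit use the spread pooled over 6 groups. These include the arrays before culture and with IL-4. The SE of Plk2, for example, was 0.45 in that fit and 0.25 with the 10 arrays, and that of Serpinb2 0.59 and 0.74. Array medians lay between -0.198 and -0.067 in KO_Ctrl and between -0.204 and -0.113 in WT_Ctrl, and the median SD of a gene between arrays was 0.352 in KO_Ctrl and 0.267 in WT_Ctrl. The array of wild-type mouse 6 stood apart from its group. Among the 3350 called genes it was the WT_Ctrl array closest to KO_Ctrl in 2302 (68.7%), where each of the other 4 was closest in 3.85% to 13.3%. Without that array 3772 genes were called. It was the only WT_Ctrl array within the KO_Ctrl range in several called genes described below. They include Dock10, Dock11, H2-Aa, H2-DMb1, Jun, Cxcr4, Klf2, Bcl2, Bcl2l11, Bcl11a, Vegfa, Hk2, Gclc, Ftl1 and Mrc1. In some of them it passed 1 knockout array only, such as that of mouse 10 in Dock10 and that of mouse 8 in H2-Aa and Bcl2l11. The part of wild-type mouse 6 in the differences was not tested beyond leaving its array out. Because every value is a ratio to B cells, the presence of B cells cannot be read from a level.

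Dock10 itself was lower in KO_Ctrl. Because the common reference is knockout RNA and no intensities are given, these ratios cannot show whether the transcript is present in knockout cells. Its log2 ratios were -1.56, -1.08, -0.91, -1.30 and -0.72 in KO_Ctrl, against -0.89, -0.62, -0.37, -0.36 and -0.64 in WT_Ctrl. The groups overlapped, because the knockout array of mouse 10 lay above the wild-type array of mouse 6. The difference of -0.54 (SE 0.17, limma adjusted p = 0.0295) had the same size but was not called when only the 10 arrays were fitted (-0.54, adjusted p = 0.0851), and was smaller and not called after quantile normalization (-0.34, adjusted p = 0.437). Of the 3 probes for the gene 2 were called lower. The probe with the largest gap read -1.13, -1.08, -0.19, -1.35 and -0.50 in KO_Ctrl, against -0.19, -0.09, 0.19, 0.05 and -0.04 in WT_Ctrl. The other called probe ranged from -1.48 to -1.05 in KO_Ctrl and from -0.77 to -0.29 in WT_Ctrl, without overlap (-0.68, adjusted p = 0.0156). A probe on another cDNA of the gene was not called, with -2.40, -0.68, -1.47, -1.37 and -0.61 in KO_Ctrl and -2.19, -0.99, -0.85, -0.79 and -1.19 in WT_Ctrl (adjusted p = 0.871). Whether these probes lie within the altered part of the gene was not tested, so they are a limited check of the genotype.

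Effector genes of the interferon response had a larger share of calls than any other gene list described here. Of 42 measured effectors 36 were called lower and 0 higher (85.7% lower, against 8.43% of all genes), with a median log2 difference of -1.20. The 10-array fit called 30 of them lower, quantile normalization 22, and the fit without the WT_Ctrl array of mouse 6 again 36. The list median of an array was -1.71, -1.71, -1.62, -1.49 and -1.82 in KO_Ctrl, against -1.25, 0.21, -0.39, -0.28 and -0.28 in WT_Ctrl. Knockout arrays lay close together, and the wild-type array of mouse 6 lay between them and the other wild-type arrays. The array numbered 6 was also the lowest of the wild-type group before culture (-0.29, against -0.01 to 0.20 in the other 4 WT_Pre arrays) and with IL-4 (-1.37, against -0.76 to -0.22 in the other 4 WT_IL4 arrays).

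**Figure D1:**
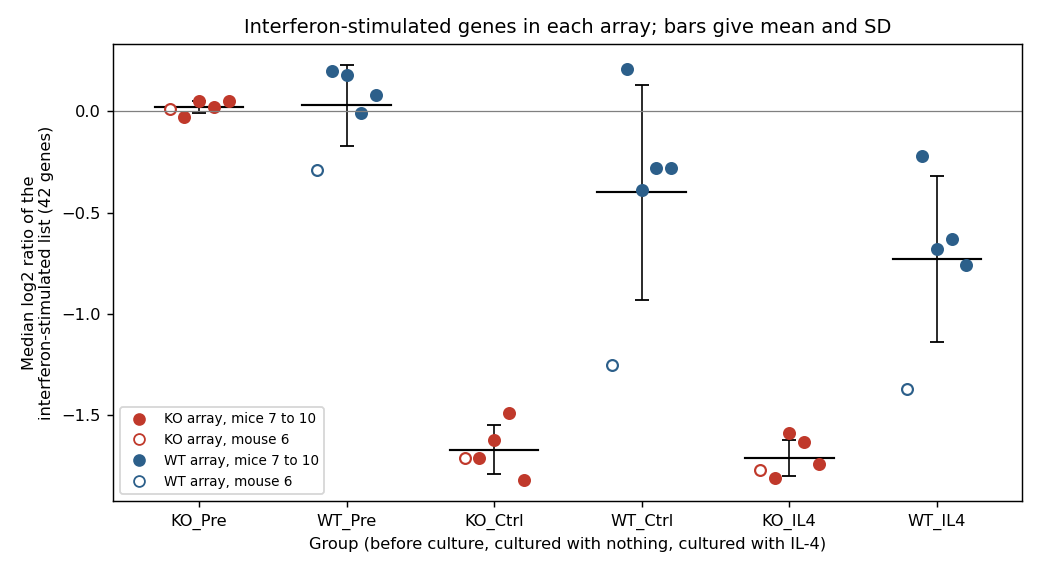
Median log2 ratio of the 42 interferon-stimulated genes in each array (vertical axis), by group (horizontal axis), with the group mean and SD as bars, KO arrays in red, WT arrays in blue and mouse 6 as an open circle. KO_Ctrl arrays lie between -1.82 and -1.49, 4 of 5 WT_Ctrl arrays lie between -0.39 and 0.21, and wild-type mouse 6 lies at -1.25.

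Individual effectors differed by several fold. Rtp4, which encodes an interferon-induced transporter protein with antiviral activity, had log2 ratios of -3.48, -3.62, -3.42, -3.11 and -3.29 in KO_Ctrl, against -1.69, 0.86, -0.01, 0.06 and 0.01 in WT_Ctrl. The groups did not overlap, and the difference was -3.23 (SE 0.38, limma adjusted p = 1.74e-06). Mx1 and Mx2 encode dynamin-like GTPases that block virus replication. Mx2 stood at -4.44, -3.19, -4.03, -3.50 and -3.91 in KO_Ctrl, against -2.64, 0.60, -0.48, -0.51 and -0.45 in WT_Ctrl. Mx1 stood at -4.04, -4.19, -2.86, -3.75 and -3.64 in KO_Ctrl, against -2.67, 0.80, -0.50, -0.56 and -0.24 in WT_Ctrl. In both genes wild-type mouse 6 was nearer to the knockout arrays than to its own group, and the differences of -3.12 and -3.06 became -3.60 and -3.57 without it.

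Other effectors were separated in the same direction. Cmpk2, a nucleotide kinase of mitochondria, had log2 ratios between -4.89 and -4.17 in KO_Ctrl, against -3.58 in wild-type mouse 6 and -1.35 to -0.26 in the other 4 WT_Ctrl arrays. Usp18, which removes the ubiquitin-like modifier ISG15 and restrains interferon signalling, lay between -3.60 and -2.69 in KO_Ctrl, against -2.31 in wild-type mouse 6 and -0.47 to 0.68 in the others. Ifi27l2a, an interferon-induced protein of mitochondria, lay between -2.22 and -1.86 in KO_Ctrl, against -1.09 in wild-type mouse 6 and 0.64 to 1.57 in the others. Genes outside the list of 42 that are known to be interferon-induced were also among the largest decreases. Tnfsf10 encodes TRAIL, an interferon-inducible death ligand, and stood at -3.22, -3.80, -4.92, -3.16 and -3.81 in KO_Ctrl, against -2.37, -1.22, -0.70, -0.30 and -0.34 in WT_Ctrl. Its groups did not overlap, and it fell by 2.80 on the log2 scale (SE 0.35, limma adjusted p = 2.98e-06). Ifit3b and Ifit1bl1 belong to the tetratricopeptide family that binds viral RNA, and Ifi213 to the PYHIN family of DNA-binding proteins. They fell by 2.89, 2.80 and 2.96. Probes for near-identical relatives, such as Ifit3 and Ifit3b or Mx1 and Mx2, may share signal, which was not tested.

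The windows of 250 bases before to 50 bases after the transcription start were searched on both strands for the core letters of the ISRE. These are GAAA, then any 2 bases, then GAAA. The letters occurred in 15 of 29 effectors with a window in the RefSeq table (51.7%). Effectors were listed as interferon-induced genes, so that share describes the list and not this comparison. Of genes with a window, 100 of 1490 called lower (6.71%), effectors included, and 44 of 1166 called higher (3.77%) held the letters. Over all 17087 measured genes with a window, 676 held them (3.96%). The letters also occurred in 4 of 21 cytosolic ribosomal protein genes with a window (19.0%), which were mostly not called. A gene counts once, with a match in any of its windows. A match is a description of the window and not a binding site. Of the 15 genes with the largest decreases 9 had a window, and 3 of those 9 genes (33.3%) held the letters. Rtp4, Mx1, Mx2, Apof, Usp18 and Ifi27l2a had no window to search. Windows of the guanylate-binding protein genes Gbp3 and Gbp7, which fell as well, are shown too because they also held the letters. The window of Ifi47, which fell too, held no match, and Gbp8 had no window. Where a gene had several windows, the one with the most matches is shown. The windows shown are from RefSeq on GRCm38.p6, written from 5′ to 3′ on the gene's strand, with the matching letters in capitals. These read as TTTC, 2 bases and TTTC where the match is on the opposite strand. Ifi213 is at chr1:173599223-173599522 on the minus strand, Ifit3b at chr19:34607707-34608006 on the plus strand and Ifit1bl1 at chr19:34599378-34599677 on the minus strand. Gbp3 is at chr3:142559794-142560093 and Gbp7 at chr3:142530086-142530385, both on the plus strand. In Gbp3 the capitals are 2 overlapping matches.
Ifi213: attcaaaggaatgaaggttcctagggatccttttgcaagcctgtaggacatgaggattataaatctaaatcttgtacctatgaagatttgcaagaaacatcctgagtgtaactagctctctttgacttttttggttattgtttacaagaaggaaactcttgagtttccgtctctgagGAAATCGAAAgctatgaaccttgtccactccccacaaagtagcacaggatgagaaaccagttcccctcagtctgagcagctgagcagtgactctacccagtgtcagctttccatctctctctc
Ifit3b: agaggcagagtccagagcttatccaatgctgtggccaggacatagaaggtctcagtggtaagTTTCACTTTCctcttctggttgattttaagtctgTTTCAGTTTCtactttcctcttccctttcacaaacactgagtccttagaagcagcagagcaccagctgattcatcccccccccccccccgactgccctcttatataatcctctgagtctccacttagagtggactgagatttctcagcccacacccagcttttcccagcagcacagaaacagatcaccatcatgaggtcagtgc
Ifit1bl1: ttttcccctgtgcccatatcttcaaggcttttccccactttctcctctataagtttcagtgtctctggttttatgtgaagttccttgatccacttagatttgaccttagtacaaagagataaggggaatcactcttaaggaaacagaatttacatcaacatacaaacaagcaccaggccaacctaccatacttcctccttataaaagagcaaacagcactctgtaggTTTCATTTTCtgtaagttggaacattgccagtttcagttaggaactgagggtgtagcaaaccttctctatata
Gbp3: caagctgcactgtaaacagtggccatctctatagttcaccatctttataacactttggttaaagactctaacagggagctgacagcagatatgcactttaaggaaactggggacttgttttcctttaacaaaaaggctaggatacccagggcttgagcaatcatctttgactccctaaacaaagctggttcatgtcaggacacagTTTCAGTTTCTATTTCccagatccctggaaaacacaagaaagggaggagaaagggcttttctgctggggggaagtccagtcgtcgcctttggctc
Gbp7: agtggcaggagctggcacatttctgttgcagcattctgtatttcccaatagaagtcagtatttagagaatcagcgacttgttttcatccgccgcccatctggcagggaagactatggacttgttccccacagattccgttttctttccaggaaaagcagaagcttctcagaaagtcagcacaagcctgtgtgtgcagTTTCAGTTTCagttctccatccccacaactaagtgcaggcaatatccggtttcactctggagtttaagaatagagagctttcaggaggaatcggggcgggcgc

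Counted from the transcription start, the first match began at position -73 in Ifi213, -188 in Ifit3b, -23 in Ifit1bl1, -45 in Gbp3 and -53 in Gbp7. Guanylate-binding proteins and immunity-related GTPases are interferon-induced GTPases that attack vacuoles of intracellular pathogens. Of 18 measured, 12 were called lower and 0 higher, with a median log2 difference of -0.99. The 10-array fit also called 12, and quantile normalization 8 at a median of -0.69. The ISRE letters occurred in 9 of the 10 of these genes with a window (90.0%). As with the effectors, that share describes a list of interferon-induced genes and not this comparison. Gbp3 stood at -1.31, -1.36, -1.41, -1.13 and -1.65 in KO_Ctrl, against -0.32, 0.29, 0.36, 0.32 and 0.28 in WT_Ctrl. It fell by 1.56 (SE 0.14, limma adjusted p = 3.56e-08) without overlap. Gbp7 ranged from -2.88 to -1.89 in KO_Ctrl and from -1.43 to -0.57 in WT_Ctrl. Gbp8 fell by 1.44 and Ifi47, an immunity-related GTPase, by 1.36.

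Sensors that detect foreign or misplaced nucleic acids were lower in 8 of 16 measured genes and higher in 0, and lower in 5 after quantile normalization. Zbp1, which senses Z-form nucleic acids, stood at -2.83, -2.08, -1.93, -2.29 and -2.49 in KO_Ctrl, against -1.79, -0.11, -0.48, -0.65 and -0.24 in WT_Ctrl. It fell by 1.67 (SE 0.26, limma adjusted p = 5.46e-05). Sting1, the adaptor that relays cytosolic DNA, ranged from -1.46 to -1.16 in KO_Ctrl and from -0.44 to 0.26 in WT_Ctrl, with -0.44 in wild-type mouse 6. The RNA helicase genes Dhx58 and Ifih1 fell by 1.34 and 1.16. Each of these 4 genes was separated between the groups.

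Receptors and transducers of the interferon signal were mostly not called. Of 19 measured, 6 were called lower and 1 higher, with a median log2 difference of -0.10. Irf7, the factor that amplifies interferon gene transcription and is itself interferon-induced, stood at -2.70, -2.23, -2.41, -2.26 and -2.70 in KO_Ctrl, against -1.86, 0.99, -0.62, -0.23 and -0.29 in WT_Ctrl. It fell by 2.06 (SE 0.37, limma adjusted p = 0.000248). Stat2 ranged from -1.11 to -0.84 in KO_Ctrl and from -0.57 to 0.40 in WT_Ctrl, and fell by 0.97. The receptor-bound kinase Tyk2 fell by 0.92 and Irf5 by 0.69. Ifnar2, a subunit of the type I receptor, was called higher by 0.37 (adjusted p = 0.0321), while Ifnar1, the other subunit, differed by -0.08 (SE 0.14, adjusted p = 0.766). The 10-array fit called 0 of these 19 genes higher and 4 lower, and quantile normalization 0 and 2. The call of Ifnar2 was thus lost in both. Among 10 measured interferon genes 1 was called higher, Ifnab (0.55, adjusted p = 0.0175), and 0 were called in the 10-array fit.

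Other large decreases were in genes not known as effectors of interferon. Itih5, a secreted protein of the inter-alpha-trypsin inhibitor family, stood at -3.68, -5.82, -5.13, -5.14 and -5.25 in KO_Ctrl, against -2.39, -1.01, -0.34, -0.55 and -0.61 in WT_Ctrl. Its difference of -4.02 (SE 0.38, limma adjusted p = 7.43e-08) was the largest decrease by the naming rule. Anxa1, a phospholipid-binding protein known to dampen inflammation, stood at -1.97, -2.17, -2.68, -1.86 and -2.39 in KO_Ctrl, against -0.09, 0.41, 0.78, 0.65 and 0.74 in WT_Ctrl. All wild-type arrays, mouse 6 included, were well apart from the knockout arrays in Anxa1, and it fell by 2.71 (SE 0.17). Spns2, the exporter of sphingosine-1-phosphate, ranged from -3.14 to -2.68 in KO_Ctrl and from -1.51 to -0.01 in WT_Ctrl. Apof, an apolipoprotein gene, fell by 2.64. Clec4a3, a C-type lectin gene of myeloid cells, ranged from -3.51 to -0.60 in KO_Ctrl and from -0.23 to 0.66 in WT_Ctrl, the widest spread among these knockout values.

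**Figure D2:**
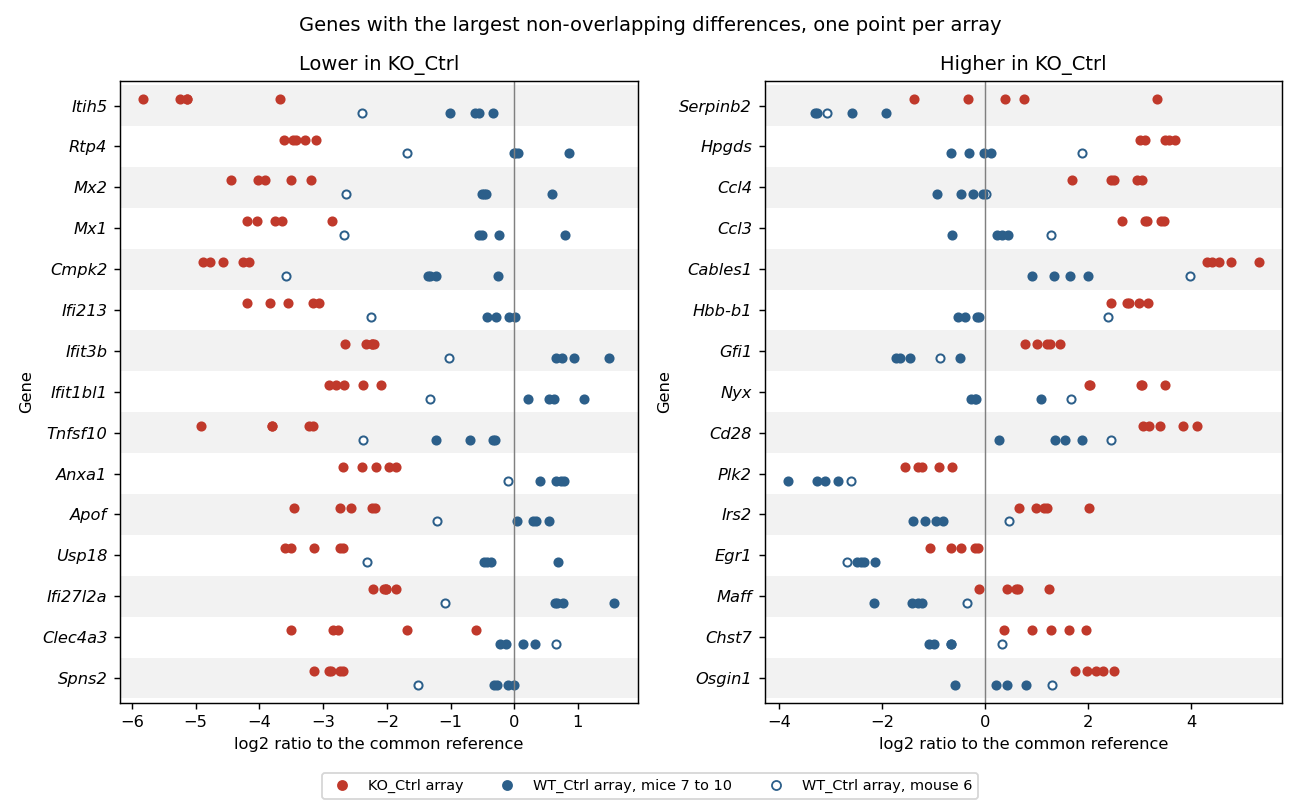
Log2 ratio to the common reference (horizontal axes) of the 15 genes with the largest decreases and the 15 with the largest increases among called genes without overlap, each KO_Ctrl array in red, each WT_Ctrl array in blue and wild-type mouse 6 as an open circle. The open circle is the wild-type point nearest to the knockout points in 14 of the 15 genes lower and in 12 of the 15 genes higher in KO_Ctrl.

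The largest increases by the naming rule were in Serpinb2, Hpgds, Ccl4 and Ccl3. Serpinb2, an inhibitor of plasminogen activators, stood at 0.39, 3.34, 0.75, -1.39 and -0.33 in KO_Ctrl, against -3.08, -3.31, -2.59, -3.27 and -1.93 in WT_Ctrl. Its knockout values spread widely but did not overlap with wild type, and the difference was 3.39 (SE 0.59, limma adjusted p = 0.000192). Ccl3 and Ccl4, chemokines that attract leukocytes, rose together. Ccl3 stood at 3.15, 3.42, 2.66, 3.11 and 3.48 in KO_Ctrl, against 1.28, -0.64, 0.45, 0.23 and 0.32 in WT_Ctrl. Ccl4 stood at 2.45, 3.04, 1.69, 2.51 and 2.95 in KO_Ctrl, against 0.01, -0.93, -0.47, -0.04 and -0.24 in WT_Ctrl. Both were separated in every array, with differences of 2.83 (SE 0.37) and 2.86 (SE 0.39), and Ccl4 was not called after quantile normalization (2.12, adjusted p = 0.0584). Of the 23 measured chemokine and inflammatory cytokine genes these 2 were the called increases and 5 were called lower, among them Il12a, a subunit of interleukin-12 (-1.40), and Ltb, which encodes lymphotoxin beta (-1.0).

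Hpgds, the haematopoietic prostaglandin D synthase, stood at 3.57, 3.00, 3.10, 3.50 and 3.68 in KO_Ctrl, against 1.89, -0.31, -0.66, 0.12 and -0.02 in WT_Ctrl, a difference of 3.17 (SE 0.34, limma adjusted p = 4.38e-07). It is also a gene of mast cells and basophils. Of the 12 measured markers of those cells Hpgds was the 1 called, and the list median ranged from -1.14 to 0.17 in KO_Ctrl and from -0.64 to -0.01 in WT_Ctrl. Cables1, an adaptor of cyclin-dependent kinases, ranged from 4.32 to 5.32 in KO_Ctrl and stood at 3.99 in wild-type mouse 6, against 0.91 to 1.99 in the other WT_Ctrl arrays. Gfi1, a zinc finger repressor of blood cell development, ranged from 0.77 to 1.45 in KO_Ctrl and from -1.74 to -0.50 in WT_Ctrl. Irs2, an adaptor of the insulin and IL-4 receptors, rose by 1.98, Nyx, a leucine-rich repeat protein known from the retina, by 2.30, and the sulfotransferase gene Chst7 by 1.84. Irs2 was not called after quantile normalization (1.56, adjusted p = 0.296).

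Transcription factors that cells induce within minutes of a stimulus were higher in part. Of 28 measured early response genes 8 were called higher and 2 lower (28.6% higher, against 6.87% of all genes), with a median log2 difference of 0.47. Egr1 stood at -0.66, -0.47, -1.08, -0.20 and -0.14 in KO_Ctrl, against -2.69, -2.15, -2.42, -2.35 and -2.50 in WT_Ctrl. It rose by 1.91 (SE 0.24, limma adjusted p = 3.38e-06), and here wild-type mouse 6 was the array farthest from the knockout. Egr2 ranged from 0.27 to 0.95 in KO_Ctrl and from -1.24 to -0.82 in WT_Ctrl, with a difference of 1.56. Jun rose by 1.35, but its groups overlapped, since wild-type mouse 6 stood at -2.0 and the other 4 WT_Ctrl arrays between -4.18 and -3.88. Maff, a small MAF factor, rose by 1.85 and the polo-like kinase gene Plk2 by 2.01. After quantile normalization 2 of the 28 genes were called higher and 0 lower, while the list median was 0.66 and Egr1 and Jun differed by 1.91 and 1.62.

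Genes of ribosome assembly were higher by small amounts. Of 30 measured ribosome biogenesis and MYC target genes 18 were called higher and 0 lower, with a median log2 difference of 0.38, whereas of 29 cytosolic ribosomal protein genes 1 was called higher and 0 lower. The difference between the lists was not tested. Gnl3, the nucleolar GTPase nucleostemin, stood at 0.49, 0.64, 0.56, 0.70 and 0.80 in KO_Ctrl, against 0.19, -0.06, -0.12, -0.10 and -0.19 in WT_Ctrl, without overlap (0.69, SE 0.12). Mrto4, a ribosome assembly factor, rose by 0.63 and the snoRNP protein gene Nop58 by 0.55. The 10-array fit called 10 of the 30 genes and quantile normalization 1. Among genes with a window, the E-box letters CACGTG, which MYC can bind, occurred in 186 of 1166 called higher (16.0%). They occurred in 139 of 1490 genes called lower (9.33%) and in 1583 of all 17087 (9.26%). In this list 5 of 24 genes with a window held them (20.8%). Of the cytosolic ribosomal protein genes, which were mostly not called, 4 of 21 with a window held them (19.0%).

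Stress responses were also higher in part. Of 21 measured targets of ATF4, the factor of amino acid and endoplasmic reticulum stress, 9 were called higher and 1 lower, at a median log2 difference of 0.47. Trib3, a pseudokinase induced by ATF4, lay far above the reference in both groups and ranged from 6.08 to 6.43 in KO_Ctrl and from 4.76 to 5.75 in WT_Ctrl. Mthfd2, an enzyme of mitochondrial folate metabolism, stood at 3.53, 3.59, 3.16, 3.53 and 3.72 in KO_Ctrl, against 3.14, 2.13, 2.69, 2.44 and 2.29 in WT_Ctrl. It rose by 0.97 (SE 0.15). Ddit3, a stress-induced transcription factor, rose by 0.96 and Cebpb by 1.07. After quantile normalization 0 of the 21 genes were called in either direction, at a median of 0.12, and 8 were called higher in the 10-array fit.

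Antioxidant genes controlled by NRF2 had 5 of 22 members called higher and 2 lower. Gclc, the catalytic subunit of glutamate-cysteine ligase, rose by 1.25, but it ranged from 1.99 to 3.29 in KO_Ctrl, against 2.97 in wild-type mouse 6 and 0.42 to 1.30 in the other 4 WT_Ctrl arrays. Without that array 10 of the 22 genes were called higher, in the 10-array fit 2 and after quantile normalization 0, with a list median of 0.41 in the 30 arrays and 0.11 after quantile normalization. Ftl1, a ferritin light chain gene, ranged from 1.92 to 2.29 in KO_Ctrl, against 1.98 in wild-type mouse 6 and 0.71 to 0.95 in the other WT_Ctrl arrays, and rose by 1.02. Osgin1, an oxidative stress response gene, rose by 1.71. Gpx1, a glutathione peroxidase gene, fell by 1.00. Among 11 heat shock chaperones 2 were called higher, led by the small heat shock protein gene Hspb1 (1.30, SE 0.25). Of 24 genes of endoplasmic reticulum folding and degradation 2 were called higher and 2 lower.

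**Figure D3:**
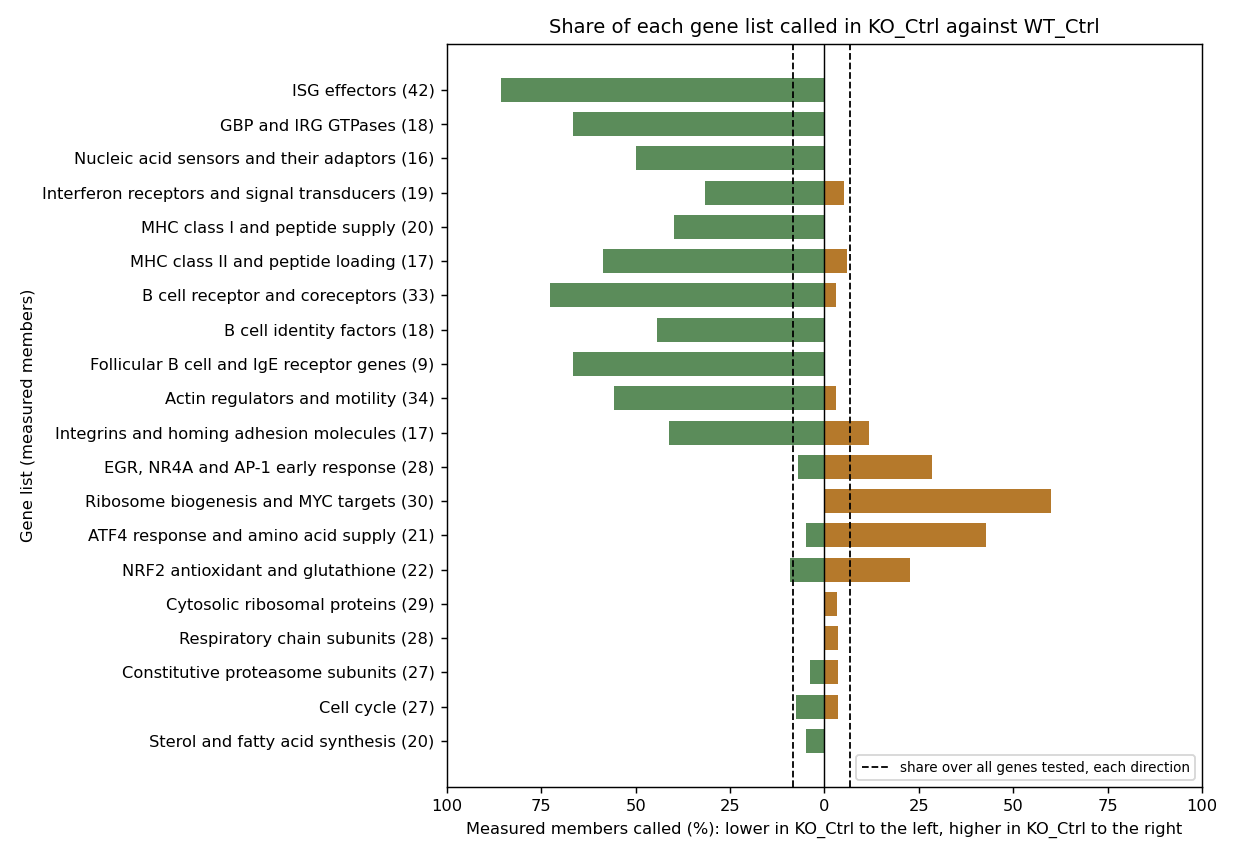
Percent of the measured members of each gene list called lower (green, to the left) or higher (ochre, to the right) in KO_Ctrl, with the number measured in brackets and dashed lines at the shares over all genes tested, 8.43% lower and 6.87% higher. Interferon-stimulated genes reach 85.7% lower, and lists of ribosomal proteins, respiratory chain, proteasome and cell cycle stay near or below the dashed lines.

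The B cell antigen receptor and its coreceptors were lower across most members. Of 33 measured genes 24 were called lower and 1 higher, with a median log2 difference of -0.51, and the 10-array fit called 17 lower and quantile normalization 9. Ms4a1, which encodes CD20, stood at -2.09, -2.36, -2.01, -2.23 and -2.52 in KO_Ctrl, against -1.45, -0.42, -1.09, -0.63 and -0.91 in WT_Ctrl. It fell by 1.34 (SE 0.26, limma adjusted p = 0.000574) without overlap. The receptor's signalling chains Cd79a and Cd79b fell by 0.80 and 0.83. Cd79b stood at -1.0, -0.95, -0.82, -1.12 and -1.13 in KO_Ctrl, against -0.55, 0.11, -0.09, -0.18 and -0.16 in WT_Ctrl. Of the receptors that restrain the antigen receptor, Siglecg fell by 1.31 and Fcgr2b fell by 0.95. In these bulk samples, fewer cells of a type and less RNA per cell cannot be told apart.

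Transcription factors that define B cells were lower in 8 of 18 measured genes and higher in 0, at a median log2 difference of -0.43. The 10-array fit also called 8 lower, and quantile normalization 2. Spib, an ETS factor of B cells, ranged from -2.04 to -1.67 in KO_Ctrl and from -1.56 to -0.22 in WT_Ctrl. Bcl11a fell by 0.95, with -1.79 to -1.32 in KO_Ctrl, against -1.34 in wild-type mouse 6 and -0.67 to -0.34 in the other WT_Ctrl arrays. Pou2f2, which encodes OCT2, fell by 0.88 and Pax5, the factor that commits cells to the B lineage, by 0.57 (SE 0.18, limma adjusted p = 0.0297). Of the 9 measured defining markers 7 were called lower, 3 after quantile normalization, and the list median lay between -1.13 and -0.80 in KO_Ctrl and between -0.77 and -0.07 in WT_Ctrl. Fcer2a, which encodes the IgE receptor CD23, stood at -1.84, -1.68, -0.80, -1.56 and -1.18 in KO_Ctrl, against -1.31, -0.08, -0.88, -0.42 and -0.57 in WT_Ctrl. The groups overlapped, and its difference of -0.76 (SE 0.25, adjusted p = 0.0381) had the same size but was not called in the 10-array fit (-0.76, adjusted p = 0.105), and was -0.39 after quantile normalization (adjusted p = 0.601). Other follicular genes included Cd55, a complement regulator (-1.04). Genes of immature cells were lower in 3 of 13, among them Vpreb3, which ranged from -1.90 to -1.63 in KO_Ctrl and from -1.40 to -0.24 in WT_Ctrl.

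Genes of marginal zone cells and B1 cells, other B cell subsets, went both ways. Of 16 marginal zone genes 4 were called higher and 4 lower, and the antigen-presenting molecule Cd1d1 fell by 1.30 (SE 0.12). Of 14 B1 genes 4 were called lower and 2 higher. S100a6, a calcium-binding protein gene in that list, stood at -0.65, -0.70, -1.02, -0.14 and -0.44 in KO_Ctrl, against 1.52, 0.62, 1.88, 1.67 and 1.84 in WT_Ctrl, without overlap (-2.10, SE 0.29). Spn, which encodes CD43, fell by 1.00, and the transcription factor gene Bhlhe41 rose by 1.07. Of 14 genes of plasma cell differentiation 2 were called higher and 1 lower.

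Antigen presentation was lower with smaller differences. Of 17 measured MHC class II genes 10 were called lower and 1 higher, at a median log2 difference of -0.61, but the 10-array fit called 4 lower and quantile normalization 0. H2-Aa, the alpha chain of an MHC class II molecule, stood at -1.73, -1.76, -1.15, -1.81 and -1.60 in KO_Ctrl, against -1.34, -0.47, -1.01, -0.54 and -0.64 in WT_Ctrl. The groups overlapped because the wild-type array of mouse 6 lay below the knockout array of mouse 8, and the difference was -0.81 (SE 0.16). Of 20 MHC class I and peptide supply genes 8 were called lower and 0 higher, with the transporter gene Tap1 at -0.94 and the immunoproteasome subunits Psmb8 and Psmb10 at -0.75 and -0.57. Quantile normalization left 0 of these calls.

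Costimulatory molecules went both ways. Cd40, through which T cells help B cells, stood at -2.62, -2.58, -2.06, -2.32 and -2.19 in KO_Ctrl, against -1.50, -0.86, -0.86, -0.90 and -0.83 in WT_Ctrl. It fell by 1.36 (SE 0.13, limma adjusted p = 5.84e-08), and Slamf1, a self-ligand of lymphocytes, fell by 1.49. The ligands of the inhibitory receptor PD-1 were higher, Pdcd1lg2 by 1.52 and Cd274 by 1.27. Cd274 stood at 0.44, 0.54, 0.19, 0.30 and 0.62 in KO_Ctrl, against -0.30, -1.14, -0.83, -1.04 and -0.99 in WT_Ctrl, without overlap. Cd86 was also called higher (0.55), and over the list 3 of 14 genes rose and 4 fell. Cd28, the receptor of CD86 on T cells, stood at 3.84, 4.12, 3.40, 3.19 and 3.06 in KO_Ctrl, against 2.44, 0.26, 1.55, 1.88 and 1.36 in WT_Ctrl, a difference of 2.03 (SE 0.38) that was not called after quantile normalization (1.27, adjusted p = 0.0923).

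Survival signals changed in single genes. Tnfrsf13c, the main BAFF receptor, lay between -1.71 and -1.55 in KO_Ctrl and between -1.33 and -0.37 in WT_Ctrl, and fell by 0.78 (SE 0.14). After quantile normalization it differed by -0.41 and was not called (adjusted p = 0.219). Over the list of BAFF receptors and TRAF adaptors 4 of 10 were called lower and 0 higher, and 1 lower after quantile normalization. In the BCL2 family 4 of 15 were called lower and 1 higher. The survival genes Bcl2 and Mcl1 fell by 1.14 and 0.94, and the death genes Bmf and Bcl2l11 differed in opposite directions (-1.14 and 0.86). Tnfrsf10b, a receptor of TRAIL and a target of p53, rose by 1.43, and of 16 p53 targets 1 was called higher and 2 lower. Mcl1 stood at -1.18, -1.20, -1.26, -1.36 and -1.44 in KO_Ctrl, against -0.73, -0.04, -0.21, -0.38 and -0.38 in WT_Ctrl. Klf2 and Txnip, genes of resting lymphocytes, fell by 0.94 and 1.25. Klf2 ranged from -2.76 to -2.13 in KO_Ctrl, against -2.44 in wild-type mouse 6 and -1.23 to -1.03 in the other WT_Ctrl arrays. Bcl2 ranged from -2.76 to -1.92 in KO_Ctrl, against -1.96 in wild-type mouse 6 and -1.38 to -0.72 in the others. Of 27 cell cycle genes 1 was called higher and 2 lower.

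Genes of the actin cytoskeleton, on which DOCK proteins act, were mostly lower. Of 34 measured actin and motility genes 19 were called lower and 1 higher, at a median log2 difference of -0.38, and the 10-array fit called 13 lower and quantile normalization 7. Gsn, the actin-severing protein gelsolin, stood at -2.75, -2.77, -2.58, -2.55 and -2.80 in KO_Ctrl, against -1.67, -0.84, -0.76, -0.52 and -0.60 in WT_Ctrl. It fell by 1.81 (SE 0.15, limma adjusted p = 2.6e-08). Myo1f, a myosin of leukocytes, ranged from -1.92 to -1.57 in KO_Ctrl and from -1.24 to -0.04 in WT_Ctrl. The filament gene Vim and the actin crosslinker gene Flna were separated between the groups as well.

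Other exchange factors of the DOCK family were called lower in 3 genes beside Dock10. Dock8, known for its role in lymphocyte migration, stood at -0.84, -1.20, -1.17, -0.89 and -1.30 in KO_Ctrl, against -0.74, 0.00, -0.38, -0.32 and -0.36 in WT_Ctrl, and fell by 0.72 (SE 0.12, limma adjusted p = 0.00011). Dock9 and Dock11, the relatives of Dock10 in the same subfamily, differed by -0.76 and -0.38, with overlapping groups. Neither was called in the 10-array fit (adjusted p = 0.0763 and 0.0889). Over the list of 13 DOCK and ELMO genes 4 were called lower and 0 higher, and 1 lower after quantile normalization.

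Adhesion and migration receptors changed unevenly. Itgb7, an integrin subunit that pairs with Itga4 in homing to the gut, stood at -2.87, -3.01, -2.86, -2.56 and -2.95 in KO_Ctrl, against -1.55, -0.74, -0.49, -0.29 and -0.25 in WT_Ctrl. It fell by 2.19 (SE 0.20, limma adjusted p = 5.38e-08) and Itga4 by 0.99, while Itgb3 rose by 1.27. Of 17 integrins and homing molecules 7 were called lower and 2 higher. Among 16 receptors of chemokines, oxysterols and sphingosine-1-phosphate 5 were called lower and 3 higher. Ccr6 fell by 1.40, and Cxcr4 and Ccr9, receptors of CXCL12 and CCL25, rose by 1.34 and 1.16. Cxcr4 ranged from 0.30 to 0.92 in KO_Ctrl, against 0.36 in wild-type mouse 6 and -1.23 to -0.72 in the other 4 WT_Ctrl arrays. Of 15 regulators of G protein signalling 6 were called lower and 2 higher, with Rgs14 at -1.47 and Rgs13 at 1.43.

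Glycolysis genes had 4 of 22 members called lower and 2 higher. The hypoxia-induced growth factor gene Vegfa was above the reference in all arrays, at 3.03 to 3.49 in KO_Ctrl and 2.42 to 3.18 in WT_Ctrl. Respiratory chain subunits had 1 of 28 called, the constitutive proteasome 2 of 27 and sterol and fatty acid synthesis 1 of 20, near or below the share of 15.3% over all genes.

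**Figure D4:**
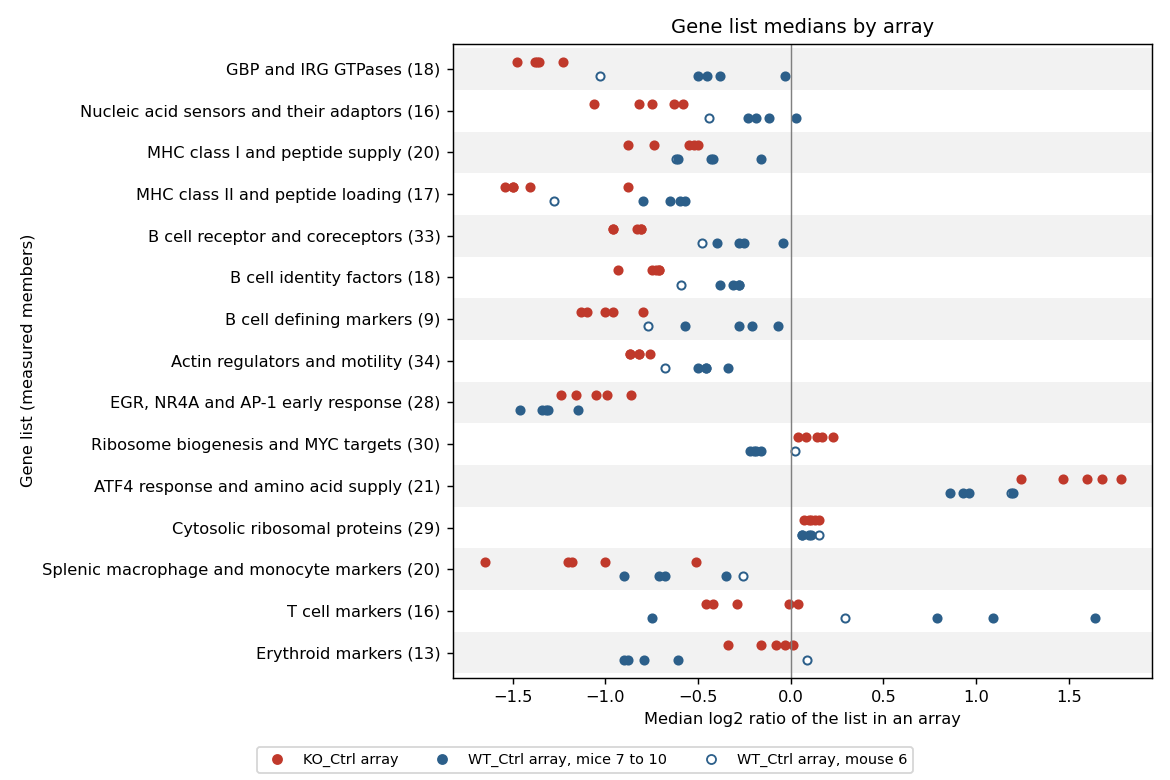
Median log2 ratio of each gene list in each array (horizontal axis), KO_Ctrl in red, WT_Ctrl in blue and wild-type mouse 6 as an open circle, with the number of measured members in brackets. B cell receptor genes lie between -0.96 and -0.81 in KO_Ctrl and between -0.48 and -0.04 in WT_Ctrl, while ribosomal proteins overlap.

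Markers of other cells had list medians that overlapped between the groups. The 20 macrophage and monocyte markers had list medians of -1.65 to -0.51 in KO_Ctrl and -0.90 to -0.26 in WT_Ctrl, with 4 called lower and 0 higher, among them Mrc1 (-1.73) and Marco (-1.05). The 16 T cell markers had medians of -0.46 to 0.04 in KO_Ctrl and -0.75 to 1.64 in WT_Ctrl, with 3 called lower (18.8%) and 1 higher (6.25%). Cd3g, a chain of the T cell receptor complex, stood at -1.56, -1.08, -1.14, -1.76 and -0.82 in KO_Ctrl, against -0.29, -0.99, 1.88, 2.55 and 1.70 in WT_Ctrl, so the wild-type samples differed among themselves. Cd28, in the same list, went the other way. The 13 erythroid markers had medians of -0.34 to 0.01 in KO_Ctrl and -0.90 to 0.09 in WT_Ctrl. Of them 2 were called higher (15.4%, against 6.87% of all genes) and 0 lower. After quantile normalization 0 macrophage and monocyte, 0 T cell and 1 erythroid markers were called. Hbb-b1, a beta globin gene, stood at 2.99, 3.16, 2.79, 2.75 and 2.45 in KO_Ctrl, against 2.39, -0.13, -0.16, -0.52 and -0.40 in WT_Ctrl, while Hba-a1 differed by 0.53 (adjusted p = 0.35). The 14 NK and cytotoxic, 15 dendritic, 15 neutrophil and 9 platelet markers had 2, 3, 2 and 1 genes called, where 15.3% of all genes were called in either direction. The part of other cells in the differences was not tested.

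The genotype gap was absent from the calls before culture and present with IL-4. Between KO_Pre and WT_Pre of mice 6 to 10 limma called 0 of 21892 genes, and 873 had an unadjusted p under 0.05. Dock10 itself differed by -0.38 (SE 0.17) before culture and was not called, so 0 calls do not show that a gap was absent. Its gap in culture without IL-4 differed from that by -0.16 (limma adjusted p = 0.784). Between KO_IL4 and WT_IL4, cultures numbered as the same animals, 4032 genes (18.4%) were called, 8.57% of all genes higher and 9.85% lower. All 15 genes with the largest decreases in KO_Ctrl were called lower there, and 8 of the 15 with the largest increases were called higher, with 0 called in the opposite direction. Dock10 averaged 0.52 in KO_IL4 and 1.59 in WT_IL4, a difference of -1.07 (SE 0.17, limma adjusted p = 0.000223), and in both genotypes its mean was above that of culture without IL-4. Mx2 and Mx1 differed by -1.87 and -1.68 with IL-4, and by -0.02 and 0.16 before culture. The arrays numbered 10 before culture differ in Xist and Y-linked genes from the cultured arrays of that number, so equal numbers may not be the same animal there.

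**Figure D5:**
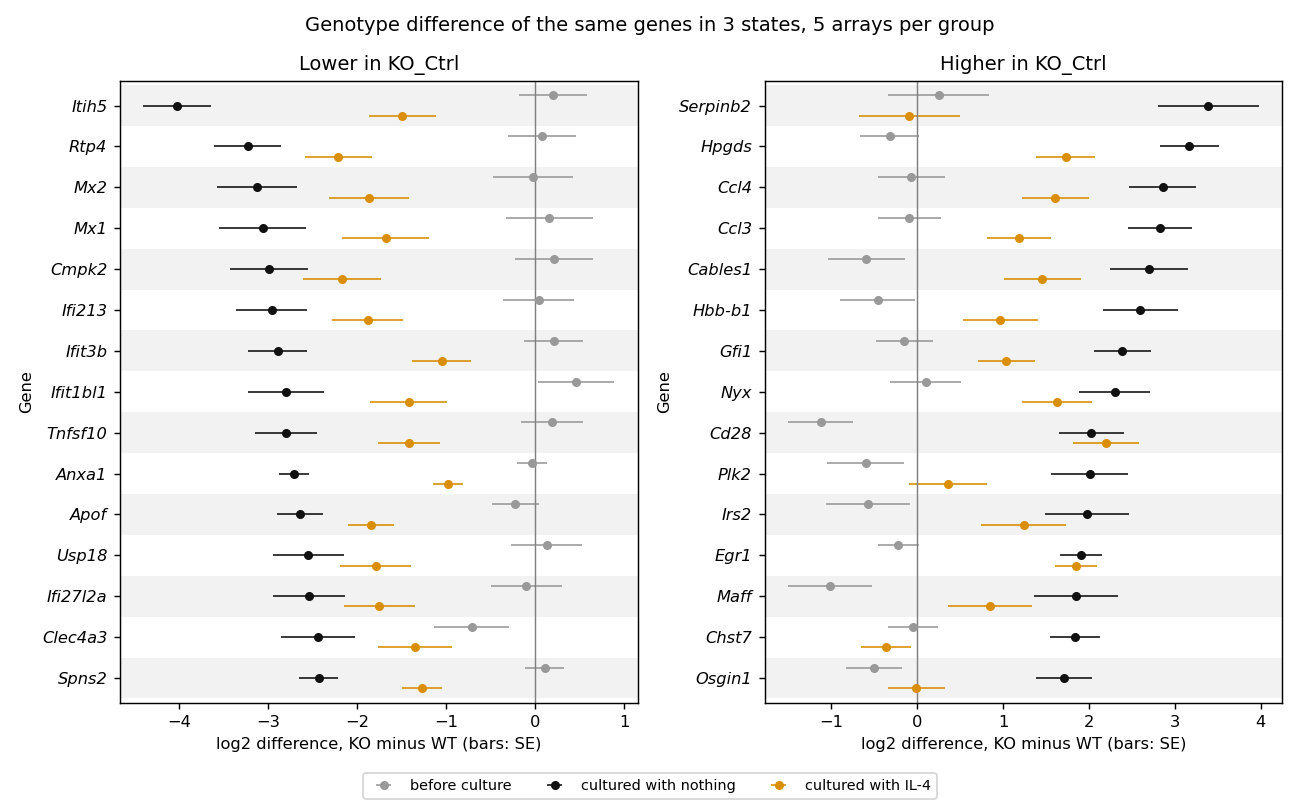
Log2 difference between knockout and wild type with its SE (horizontal axes) for the 30 genes named for size, before culture in grey, cultured with nothing in black and cultured with IL-4 in orange, with 5 arrays per group. Differences before culture lie between -0.71 and 0.46 for the genes lower and between -1.12 and 0.25 for the genes higher in KO_Ctrl.

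The difference of the genotype gaps was tested for the genes named for size, which were picked by their gap in culture without IL-4, so a larger gap there is favoured by the choice. Against the state before culture it passed in 14 of the 15 genes lower and 15 of the 15 genes higher in KO_Ctrl, where limma called 6.68% of all genes, 4.46% lower and 2.22% higher. Against culture with IL-4 it passed in 5 of the 30, where 1.19% of all genes were called, 0.608% lower and 0.585% higher. Itih5, Anxa1 and Ifit3b had a larger decrease without IL-4, Anxa1 by 1.73 on the log2 scale (adjusted p = 0.000565). Serpinb2 and Chst7 were higher in KO_Ctrl, but differed by -0.09 and -0.36 with IL-4 (difference of gaps 3.48 and 2.21, adjusted p = 0.0383 and 0.00834). Of the 42 interferon effectors 32 were called lower and 1 higher with IL-4, at a median of -0.86. Ribosome biogenesis genes had 18 of 30 called higher without IL-4 and 0 of 30 called with it, and ATF4 targets 9 of 21 called higher without and 0 of 21 with it. Whether those counts differ between the states was not tested.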

How the data were processed

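RNA of mouse spleen B cells was measured on Agilent 2-colour arrays, and only processed values were used. The authors deposited, per probe and array, the log2 ratio of the Cy5 sample to the Cy3 reference pool, which per the submitters' processing notes came from Agilent Feature Extraction 11.0.1.1. The series description adds GeneSpring GX, and the normalization within arrays and any filter are not known, and without intensities no probe could be judged against background. Of 39429 probes outside the controls, 30625 carry 1 gene symbol and 8804 none here. Log2 ratios of a gene's probes were averaged, which gave 21892 genes, 6807 of them with several probes.

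Genes were tested with limma 3.58.1 in R 4.3.3 on 30 arrays, 5 per group of mice 6 to 10, with the contrast KO_Ctrl minus WT_Ctrl, moderated variances and Benjamini-Hochberg adjustment over all genes. Within a group the samples are numbered as separate mice, and the same numbers recur before culture and in both cultures. The fit treated the 30 arrays as independent, and its p-values measure the spread between arrays within the 6 groups. The fit was tested on simulated data with 200 changed genes. There 12 of the 148 calls of the 30-array fit were false, against 2 of the 108 calls of the 10-array fit. Changes of 1 on the log2 scale were recovered in 69% and 54% of genes. Alternatives changed the arrays fitted, the scaling, covariates, probe summary, variance model and block, and left out each array in turn.

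Genes named for size are the 15 largest increases and 15 largest decreases among called genes without overlap, clones and predicted genes left out. Dock10 and Fcer2a are always named, as are up to 4 called members of each list with the largest differences. Ifnar1, Ifnar2, Cd86, Pax5 and Hba-a1 were added after their values were seen. The comparison and the gene lists were chosen with earlier results of these data known. Promoter windows are from RefSeq (GRCm38.p6). A gene list and some gene names are not reported here.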

Additional observations from a re-analysis of the deposited data

Results flagged for a closer look

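A highest or lowest array was set apart when its gap to the nearest other array, divided by the range of its group, passed 0.71, the limit for 5 arrays, which chance passes in about 1 of 20 groups. Over the 173 named genes, 30 of 346 groups held such an array. Most of these genes were picked by their group difference and they are not independent, so the count cannot be weighed against chance. Wild-type mouse 6 was such an array in 25 genes of WT_Ctrl. It was the lowest array in 18 genes. Among interferon-induced genes the gap over range was 0.803 for Ifi213, 0.809 for Sting1, 0.885 for Gbp3 and 0.774 for Psmb8. Among B cell and presentation genes it was 0.733 for H2-DMb1, 0.884 for Cd40, 0.835 for Cd1d1 and 0.812 for Vpreb3. It was 0.718 for Apof, 0.796 for Spns2, 0.726 for Gsn and 0.793 for Rgs14. It was 0.838 for Txnip, 0.855 for Klf2, 0.728 for Bmf and 0.806 for Gpx1. In Mrc1, a macrophage gene, it was 0.752 and in Ly6g, a neutrophil gene, 0.746.

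Wild-type mouse 6 was the highest array of WT_Ctrl in the other 7 genes. The gap over range was 0.866 for Hbb-b1, 0.864 for Jun, 0.714 for Itgb3 and 0.802 for Mrto4. It was 0.778 for Vegfa, 0.764 for Hk2 and 0.814 for Ftl1. In each of these 25 genes that array lay on the KO_Ctrl side of the WT_Ctrl mean. The other arrays set apart were the knockout arrays of mouse 7 in Ifit3b (0.726, lowest), of mouse 10 in Bmf (0.743, lowest) and of mouse 8 in Bcl2l11 (0.846, lowest), and the wild-type array of mouse 7 in Irf5 (0.782, highest) and in S100a6 (0.719, lowest).

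The genotype gap of genes named for size differed between culture without IL-4 and the state before culture, by limma with adjustment over all genes. Among genes higher in KO_Ctrl the difference of the gaps was 3.14 for Serpinb2 (adjusted p = 0.0209), 3.49 for Hpgds, 2.93 for Ccl4, 2.93 for Ccl3, 3.29 for Cables1, 3.06 for Hbb-b1 and 2.54 for Gfi1. It was 2.19 for Nyx, 3.15 for Cd28, 2.61 for Plk2, 2.55 for Irs2, 2.13 for Egr1, 2.87 for Maff, 1.89 for Chst7 and 2.21 for Osgin1. Among genes lower in KO_Ctrl it was -4.22 for Itih5, -3.31 for Rtp4, -3.09 for Mx2, -3.22 for Mx1, -3.20 for Cmpk2, -3.0 for Ifi213 and -3.10 for Ifit3b. It was -3.26 for Ifit1bl1, -2.99 for Tnfsf10, -2.68 for Anxa1, -2.42 for Apof, -2.68 for Usp18, -2.43 for Ifi27l2a and -2.54 for Spns2. These genes were picked by their gap in culture, which favours such differences.

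Against culture with IL-4 the difference of the gaps passed in 5 of the 30 genes. It was 3.48 for Serpinb2 (adjusted p = 0.0383), 2.21 for Chst7 (adjusted p = 0.00834), -2.53 for Itih5 (adjusted p = 0.0205), -1.84 for Ifit3b (adjusted p = 0.0473) and -1.73 for Anxa1 (adjusted p = 0.000565).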

How the results depend on the processing

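The counts for KO_Ctrl vs WT_Ctrl, also split into KO_Ctrl vs WT_Ctrl genes higher and KO_Ctrl vs WT_Ctrl genes lower, depended on the fit. The 10 arrays alone gave 1923 calls with 676 higher, quantile normalization 674 (130 higher, 544 lower), genes with an SD above the median 1091 (414 higher, 677 lower, with fewer genes tested) and a 2-fold minimum 634 (258 higher, 376 lower). Mouse number as a replicate block in the 10 arrays gave 398 calls (117 higher, 281 lower), and Dock10 at -0.54 (adjusted p = 0.107). Residuals of arrays with equal numbers correlated between -0.171 and 0.169, so the numbers were not treated as pairs. Leaving out 1 array at a time gave 2506 to 3772 calls, 1013 to 1742 higher and 1493 to 2030 lower. Dock10 in KO_Ctrl vs WT_Ctrl was negative under all 27 alternatives but not called in 10 of them. It was -0.54 with the 10 arrays (adjusted p = 0.0851) and with the SD filter (adjusted p = 0.0886), -0.34 with quantile normalization (adjusted p = 0.437) and -0.50 with the spike-in ratio as covariate (adjusted p = 0.0711). It was -0.62 with the 10 arrays less wild-type mouse 6, an alternative chosen after seeing the data (adjusted p = 0.0536). Leaving out 1 array gave -0.64 to -0.43, and the call was lost without the knockout arrays of mouse 6 or 9 or the wild-type arrays of mouse 8 or 9. The cause was not tested. Of 810 values of the 30 genes named for size 10 lost the call, all under quantile normalization or the block and all in genes higher in KO_Ctrl, namely Serpinb2, Ccl4, Cd28, Plk2, Irs2, Maff and Osgin1. Of 3791 values of other named genes 426 lost it, and 0 reversed. The losses were uneven between alternatives. Of the 173 named genes 107 lost the call with the replicate block, 95 under quantile normalization and 35 with the 10 arrays alone. Fcer2a lost its call in 10 of 26 alternatives. With no intensities, signal over background could not be assessed.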

Other observations

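In Gzmb, Prdm1 and Aldoc the genotype gap, knockout minus wild type on the log2 scale, was of opposite sign with and without IL-4. In Prf1, given beside Gzmb, it had the same sign. These genes were chosen after their values were seen, among members of the gene lists, and are not the only ones. Herpud1 had gaps of 0.28 without and -0.34 with IL-4 (difference 0.63, limma adjusted p = 0.0235). Derl1 had gaps of 0.50 and -0.18 (difference 0.68, limma adjusted p = 0.00414). Gzmb, which encodes the protease granzyme B, stood at -1.98, -1.44, -0.65, -1.12 and -0.12 in KO_Ctrl, against -2.94, -3.36, -2.78, -2.29 and -2.15 in WT_Ctrl, without overlap. With IL-4 it ranged from -1.32 to 0.87 in KO_IL4 and from 0.97 to 2.17 in WT_IL4. The gap was 1.64 without and -2.0 with IL-4, and the difference of the gaps was 3.64 (SE 0.52, limma adjusted p = 0.000565). Prf1, which encodes the pore-forming protein perforin, was higher without IL-4 by 0.53 (limma adjusted p = 0.0206) and with it by 0.52 (limma adjusted p = 0.021), and the difference of the gaps was not called (adjusted p = 0.991). With the 10 arrays alone the first of these was not called (adjusted p = 0.0761).

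Prdm1, which encodes the plasma cell factor BLIMP1, averaged 2.79 in KO_Ctrl and 2.05 in WT_Ctrl, with overlap because wild-type mouse 6 stood at 3.19. With IL-4 it ranged from 1.75 to 2.35 in KO_IL4 and from 1.92 to 3.30 in WT_IL4, and the difference of the gaps was 1.47 (SE 0.34, limma adjusted p = 0.0297). The gap without IL-4 was 0.74 (limma adjusted p = 0.0352), and it was not called with the 10 arrays alone (adjusted p = 0.155). Aldoc, a glycolytic aldolase, ranged from 0.24 to 0.70 in KO_Ctrl and from 1.0 to 1.49 in WT_Ctrl. With IL-4 it ranged from 0.90 to 1.35 in KO_IL4 and from 0.72 to 1.04 in WT_IL4, a gap of 0.32 that was not called (adjusted p = 0.0688). The gap without IL-4 was -0.90 (limma adjusted p = 1.05e-05), and the difference of the gaps was -1.22 (SE 0.17, limma adjusted p = 0.000565).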
